A study of Rattus norvegicus with 20 samples.

Results

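The genes described here serve glucuronidation and sulfation in rat liver, and all 6 were chosen by name. They are the transferases Ugt2b1, Sult1a1, Sult1b1 and Sult1e1, and the cofactor-making enzymes Ugdh and Papss2. Earlier results of these data were known at that choice, so counts of calls among the 6 are not from an independent set. Every probe set (a group of short array probes that is read as 1 value) annotated to 1 of these symbols was used, which gave 7 probe sets, of which 2 belong to Papss2, among 14217 genes with a usable probe set. All 6 genes passed the filter on dim probe sets, on all 20 arrays, and stand among the 11576 genes tested.

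The study compared sesame lignans for their effect on gene expression in the liver of male Sprague-Dawley rats, an outbred laboratory stock. The rats arrived at 4 weeks of age, were acclimatised for 7 days and were then given 1 of 4 diets for 15 days: 0.2% sesamin, 0.2% episesamin, 0.2% sesamolin, or a diet with no lignan (lignan-free). Each diet had 7 rats, and the heaviest and the lightest rat of each diet were not put on arrays, so that each diet has 5 Affymetrix arrays of 1 rat each and its spread leaves out the extremes of body weight. Sesamin and episesamin are epimers, furofurans that differ in the configuration at 1 ring carbon, and sesamolin carries an ether oxygen between its furofuran core and 1 of the methylenedioxyphenyl groups.

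Glucuronidation and sulfation make lipophilic compounds water-soluble, so that they can leave in bile or urine. UDP-glucuronosyltransferases (Ugt genes) move glucuronate from UDP-glucuronate, which Ugdh makes by oxidising UDP-glucose. Cytosolic sulfotransferases (Sult genes) move sulfate from PAPS, which Papss2 makes from ATP and inorganic sulfate by acting as both ATP sulfurylase and APS kinase. Each route therefore needs a transferase and a supply of its cofactor, and the liver, where drugs, bile acids, bilirubin and steroid hormones are conjugated, uses both.

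Mean raw intensity per array ran from 159 to 271 before normalization, and arrays of 1 diet correlated at 0.959 to 0.980. Levels below are quantile-normalized intensities, which can be compared between diets for 1 probe set but not between genes. Changes are log2 differences ± SE from 1 limma fit to all 20 arrays, adjusted p-values are Benjamini-Hochberg values over all 11576 genes of a comparison, and a gene is called when its adjusted p is below 0.05. With 5 arrays a diet, array number sets how precise these values are. Summed levels of 9 hepatocyte markers lay at 91516 to 93351 with sesamin, 85813 to 92582 with episesamin, 87373 to 92820 with sesamolin and 90974 to 97589 without lignan. Apob was the 1 hepatocyte marker called, lower with sesamolin, with a mean of 8874 against 10857 without lignan. Summed levels of 9 Kupffer cell and leukocyte markers were 2435 to 4215, 2701 to 3242 and 2240 to 3212 in the same order of lignans, against 3721 to 4107 in lignan-free rats. The mean of 1 of these 9 markers lay below the filter level with sesamin, of 2 with episesamin and of 1 with sesamolin, against 0 without lignan, and none was at 0. Of them, 3 were called lower with sesamolin (Clec4f, Csf1r and Adgre1), where 6.24% of all genes were called. None was called with sesamin or episesamin. All 9 had a log2 difference below 0 with each lignan, with medians of -0.27 for sesamin, -0.43 for episesamin and -0.55 for sesamolin. Among 10 endothelial and stellate cell markers, Lyve1 and Kdr were called lower with both episesamin and sesamolin. Those comparisons called 5.12% and 6.24% of all genes. Kdr with episesamin turned to 0.11 (not called) when its probe sets were averaged. Of the 10, 3 had a log2 difference above 0 with episesamin and 2 with sesamolin. Summed levels of the 10 were 5528 to 7615 without lignan and 4915 to 5704 with sesamin. They were 4612 to 5419 with episesamin and 4059 to 5269 with sesamolin. Of 6 tested markers of bile duct, blood and gut or pancreas, Cela1 was the 1 called. It was higher with episesamin, with a mean of 818 against 509 without lignan. In whole liver, fewer cells of a type and less RNA per cell cannot be told apart, and the part of these cell types in the results was not tested.

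The transferase Ugt2b1 and the PAPS maker Papss2 differed over the 4 diets, in opposite directions, and the other 4 genes did not pass. The moderated F test gave adjusted p = 0.0003909 for Papss2 and 0.006957 for Ugt2b1, and it called 4.89% of all genes. Its adjusted p was 0.075 for Ugdh, 0.3167 for Sult1a1, 0.488 for Sult1e1 and 0.9397 for Sult1b1. Against lignan-free rats, sesamin called 0 of the 6 genes, with a background of 0.432% of all genes. Episesamin called 2 of the 6, Ugt2b1 upwards and Papss2 downwards, with a background of 5.12%, and sesamolin called 1, Papss2, with a background of 6.24%. Sesamolin against episesamin called 0 of the 6 genes and 0 of all genes (limma), with 663 genes at an unadjusted p below 0.05. Of all genes called, 92% were higher with sesamin, 56.8% with episesamin and 52.6% with sesamolin than without lignan. When arrays were instead scaled to 1 median these shares were 80%, 26.6% and 28%, and with no normalization 94.4%, 27.8% and 25.8%, while the signs of Ugt2b1 and Papss2 with episesamin and sesamolin were the same under each scaling. With sesamolin 55.2% of calls were higher than with sesamin, and 39.1% with no normalization. Complete separation of the 5 rats of each diet occurred for 0 of the 6 genes in sesamin against lignan-free (1.91% of all genes) and in sesamolin against episesamin (0.803%). Against lignan-free it occurred for 3 of the 6 with episesamin (6.85%) and 2 with sesamolin (6.93%). Against sesamin it occurred for 3 with episesamin (3.64%) and 3 with sesamolin (4.29%).

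**Figure D1:**
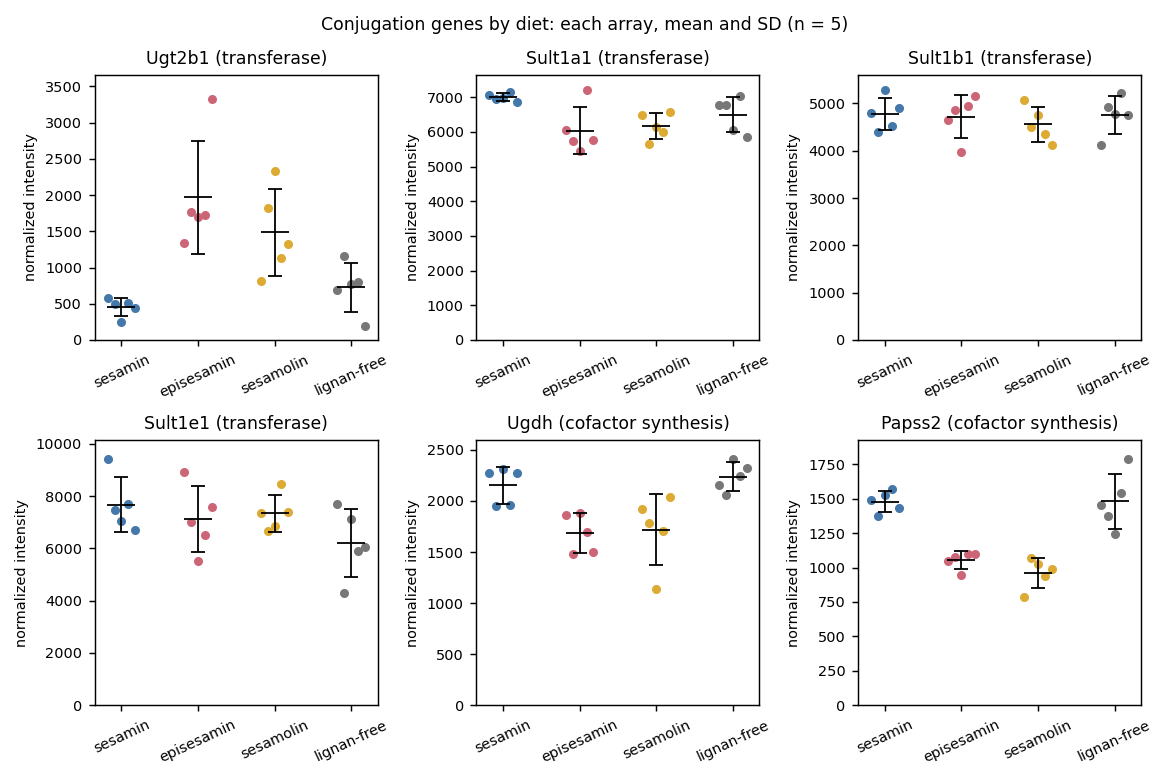
Quantile-normalized intensity (vertical axes, from 0) of the 6 genes on each array, by diet, with the mean and SD of 5 rats. Every episesamin array of Ugt2b1 lies above every sesamin and lignan-free array, every episesamin and sesamolin array of Papss2 lies below every sesamin and lignan-free array, and Sult1b1 has nearly the same mean in all diets.

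The stretches of genome just before the starts of Ugt2b1, Ugdh and Papss2 are shown because the 5 rats of at least 1 lignan diet separated completely from the lignan-free rats for each of these genes. They are RefSeq sequences on GRCr8, all on the + strand and 5′ to 3′, cut to the bases before the outermost annotated start. The Ugt2b1 stretch is chr14:21378632-21378881 (250 bases), the Ugdh stretch chr14:43202268-43202479 (212 bases) and the Papss2 stretch chr1:239867463-239867596 (134 bases). Capitals mark GC boxes, GGGCGG on either strand.
Ugt2b1: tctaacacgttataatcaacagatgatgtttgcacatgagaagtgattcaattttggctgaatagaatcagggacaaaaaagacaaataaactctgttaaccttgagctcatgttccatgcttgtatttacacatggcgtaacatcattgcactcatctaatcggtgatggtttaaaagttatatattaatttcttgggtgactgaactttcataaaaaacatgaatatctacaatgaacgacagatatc
Ugdh: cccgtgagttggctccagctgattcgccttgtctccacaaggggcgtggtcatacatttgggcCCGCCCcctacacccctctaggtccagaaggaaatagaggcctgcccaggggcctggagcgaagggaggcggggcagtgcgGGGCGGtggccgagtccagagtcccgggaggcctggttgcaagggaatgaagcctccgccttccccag
Papss2: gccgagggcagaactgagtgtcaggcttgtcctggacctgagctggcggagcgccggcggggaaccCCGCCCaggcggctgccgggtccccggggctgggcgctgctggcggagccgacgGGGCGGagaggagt

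The Ugt2b1 stretch is poor in G and C, at 33.2%, which puts it at percentile 4.2 of 33469 annotated promoters cut to the same length. The stretches of both cofactor genes are rich in G and C, at 66.0% for Ugdh (percentile 87.5) and 76.1% for Papss2 (percentile 97.6). Ugdh and Papss2 each hold 2 GC boxes, 1 on each strand, a motif present in 26.14% of all promoters at the length used for Ugdh and 14.34% at that used for Papss2. Ugt2b1 holds none, against 30.47% of promoters at its length. Of the other motifs searched on both strands, none occurs in any of the 3 stretches: the nuclear receptor half-site AGGTCA (14.06% of promoters at 250 bases), that half-site repeated in the same direction after 1 base (0.05%) or after 4 bases (0.0%), both of which contain it, the TATA box TATAAA (12.93%) and the HNF1 half-site GTTAAT (6.45%). The shares of these other motifs are for 250 bases. At the Ugdh and Papss2 lengths AGGTCA occurred in 11.91% and 7.52% of promoters, TATAAA in 10.66% and 6.99%, and GTTAAT in 5.75% and 3.77%. A motif match is a description of these letters, not a binding site.

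Ugt2b1, which in rats glucuronidates steroids such as testosterone and drugs such as morphine, was the transferase that differed by diet. Its level was 578, 502, 249, 514 and 448 in sesamin rats. In episesamin rats it was 1336, 1770.4, 1699, 1726 and 3332. In sesamolin rats it was 808, 1823, 2338, 1135 and 1330.4, against 694, 1152, 779, 804 and 199 in lignan-free rats. All episesamin rats therefore stood above all sesamin and all lignan-free rats, and all sesamolin rats stood above all sesamin rats. In these comparisons such separation occurred in 3.64%, 6.85% and 4.29% of all genes, in that order. The sesamolin and lignan-free values overlapped, with 3 of the 5 sesamolin rats above the highest lignan-free rat. The order of the means was episesamin (1973 ± 779), sesamolin (1487 ± 601), lignan-free (726 ± 343) and sesamin (458 ± 126; SD, n = 5 each).

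Against lignan-free rats, Ugt2b1 rose with episesamin by 1.56 ± 0.39 on the log2 scale, 2.95-fold, with an adjusted p of 0.02549. With sesamolin the change was 1.13 ± 0.39, or 2.19-fold, and was not called (adjusted p = 0.09837). With sesamin it was -0.51 ± 0.39, with a 95% interval of -1.33 to 0.30 (adjusted p = 0.8454). The episesamin call rests in part on the brightest rat, the fifth: without it the change was 1.35 and the adjusted p 0.06277. With array brightness as a covariate its adjusted p was 0.06607, and the call held in 30 of 37 alternatives.

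Ugt2b1 was higher with episesamin than with its epimer sesamin by 2.07 ± 0.39 (4.21-fold, adjusted p = 0.009394), in a comparison that called 1.23% of all genes. When arrays with a mean raw intensity under 200 were left out, this Ugt2b1 difference had an adjusted p of 0.1054, and it was called in the other 36 of 37 alternatives. Sesamolin exceeded sesamin by 1.64 ± 0.39 (3.12-fold, adjusted p = 0.03428; background 1.81%). The sesamolin call of Ugt2b1 held in 13 of the 20 fits that left out 1 array. It ended without sesamin rat 2, 3, 4 or 5 and without sesamolin rat 2, 3 or 5, with an adjusted p of up to 0.09812 (without sesamin rat 3). Sesamolin and episesamin differed by -0.43 ± 0.39, with a 95% interval of -1.24 to 0.39, so the data do not fix its sign.

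**Figure D2:**
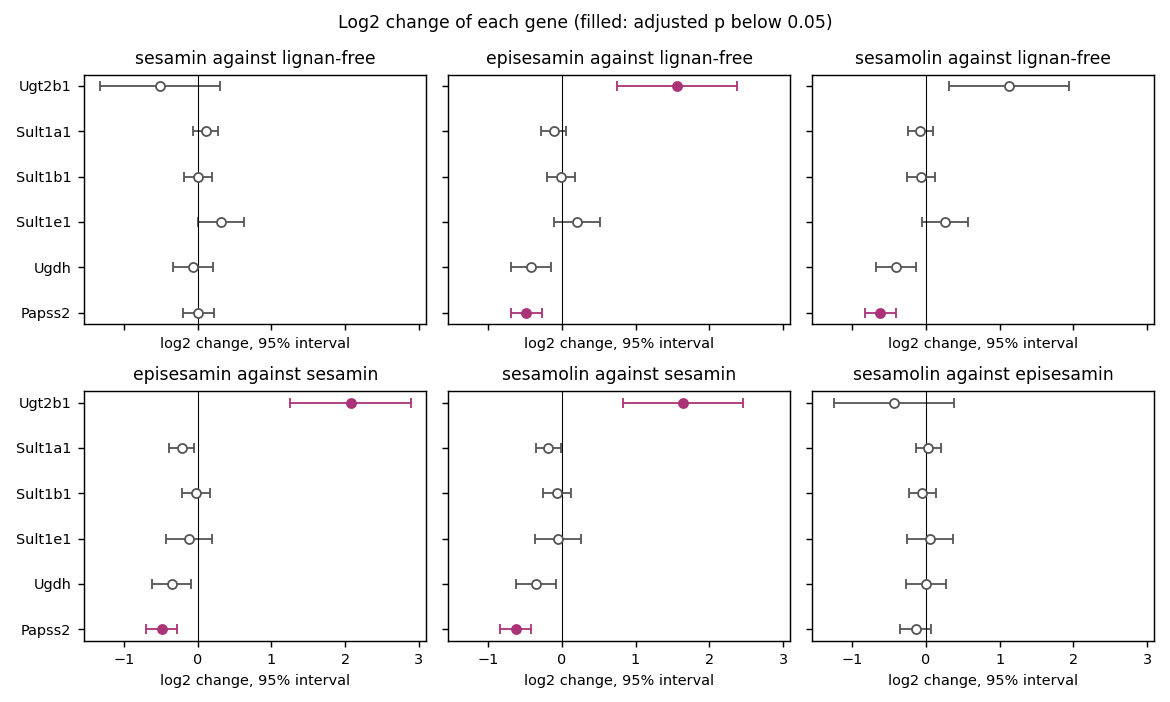
Log2 change of each gene (horizontal axes) with its 95% interval in the 6 comparisons, as points that are filled where the adjusted p is below 0.05. Filled points appear for Ugt2b1 on the right and Papss2 on the left in the episesamin comparisons with lignan-free and sesamin and in sesamolin against sesamin, for Papss2 alone in sesamolin against lignan-free, and in neither sesamin against lignan-free nor sesamolin against episesamin.

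The sulfotransferases did not pass in any comparison. Sult1a1, which sulfates small phenols, had levels of 6854 to 7156 with sesamin, 5451 to 7201 with episesamin and 5662 to 6582 with sesamolin, against 5862 to 7029 without lignan. The sesamin rats were the tightest group, with an SD of 117 against 375 to 683 in the other lignan groups, and all 5 sesamolin rats lay below all 5 sesamin rats. That difference was -0.18 ± 0.08 (adjusted p = 0.3019), and such complete separation of these diets occurred in 4.29% of all genes. Against lignan-free rats Sult1a1 stayed within 0.11 of zero for each lignan, with 95% intervals reaching -0.28 for episesamin and 0.28 for sesamin.

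Sult1b1, which sulfates thyroid hormones and catechols, averaged 4779 ± 346 with sesamin, 4717 ± 452 with episesamin and 4563 ± 372 with sesamolin, against 4759 ± 404 without lignan (SD, n = 5 each). All 4 groups overlapped. Its largest change in any of the 6 comparisons was -0.07 ± 0.09, and its 95% intervals against lignan-free rats lay between -0.25 and 0.20.

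Sult1e1, the oestrogen sulfotransferase, averaged 7669 ± 1044 with sesamin, 7112 ± 1263 with episesamin and 7350 ± 708 with sesamolin, against 6216 ± 1307 in lignan-free rats. Each lignan mean lay above the lignan-free mean, and each lignan group overlapped the lignan-free group. The changes were 0.32 ± 0.15 for sesamin, 0.20 ± 0.15 for episesamin and 0.26 ± 0.15 for sesamolin, with adjusted p-values of 0.6616, 0.4787 and 0.3318. The unadjusted p for sesamin was 0.04401. These comparisons share the same lignan-free rats, 1 of which, at 4298, was the lowest of all 20.

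Of the cofactor-making genes, Papss2 fell with episesamin and sesamolin, and Ugdh had lower means in both without passing the test. On the Papss2 probe set with the higher mean, levels were 1491, 1376, 1526, 1569 and 1430.3 in sesamin rats. They were 1046, 1077, 945, 1099 and 1100.2 in episesamin rats. They were 784, 1068, 1023, 937 and 993 in sesamolin rats, against 1455, 1374, 1244, 1539 and 1785 in lignan-free rats. No episesamin or sesamolin rat reached the lowest sesamin or lignan-free rat, whereas the sesamin rats lay inside the lignan-free range. Such separation from lignan-free occurred in 6.85% of all genes for episesamin and 6.93% for sesamolin. From sesamin it occurred in 3.64% and 4.29%. The means were 1479 ± 76.3, 1053 ± 64.4 and 961 ± 110 with sesamin, episesamin and sesamolin, against 1480 ± 203 without lignan (SD, n = 5 each).

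Papss2 fell by 0.48 on the log2 scale with episesamin (SE 0.10, adjusted p = 0.007171) and by 0.62 with sesamolin (SE 0.10, adjusted p = 0.0006627). These levels were 0.717 and 0.652 of the lignan-free level. Sesamin left a change of 0.01 ± 0.10 with a 95% interval of -0.20 to 0.21. Against sesamin, Papss2 was lower with episesamin by -0.49 ± 0.10 (adjusted p = 0.01599) and with sesamolin by -0.63 ± 0.10 (adjusted p = 0.002184). Sesamolin and episesamin differed by -0.14 ± 0.10, with a 95% interval of -0.34 to 0.07. Of 37 alternatives, the Papss2 call against lignan-free held in 37 for sesamolin and 35 for episesamin, and that of episesamin against sesamin held in 31, with an adjusted p of 0.1056 under median scaling and 0.06006 after adjustment for the actin probe ratio, a measure of RNA quality.

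The second Papss2 probe set did not pass. It read 634 to 945 with sesamin, 589 to 764 with episesamin and 395 to 835 with sesamolin, against 636 to 989 without lignan, so that every pair of diets overlapped. Its change against lignan-free rats was -0.22 ± 0.17 with episesamin (adjusted p = 0.5387) and -0.30 ± 0.17 with sesamolin (adjusted p = 0.3761), the same sign as the first probe set. When both probe sets were averaged, Papss2 was still called with sesamolin (-0.46, adjusted p = 0.04327) but not with episesamin (-0.35, adjusted p = 0.1317). The Papss2 calls against sesamin ended as well, with adjusted p-values of 0.2038 for episesamin and 0.06515 for sesamolin.

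**Figure D3:**
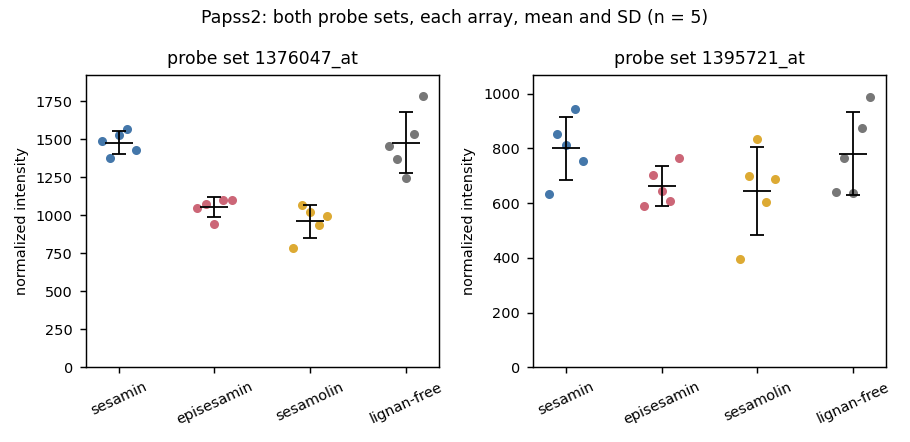
Normalized intensity (vertical axes, from 0) of the Papss2 probe sets on each array by diet, with the mean and SD of 5 rats. On the probe set that stands for the gene (left panel) the episesamin and sesamolin arrays lie wholly below the sesamin and lignan-free arrays, and on the second all diets overlap.

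Ugdh, which oxidises UDP-glucose to UDP-glucuronate, separated from lignan-free rats without passing the test. Its level was 2269.5, 1946, 2308, 1963 and 2276 in sesamin rats. It was 1864, 1479, 1885, 1699 and 1504 in episesamin rats. It was 1919.9, 1785, 1134, 1710.4 and 2041 in sesamolin rats, against 2159, 2053, 2410.1, 2248 and 2320.0 in lignan-free rats. All episesamin rats were below all sesamin and lignan-free rats, and all sesamolin rats were below all lignan-free rats. Complete separation occurred in 6.85% of all genes for episesamin and 6.93% for sesamolin against lignan-free, and in 3.64% for episesamin against sesamin.

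The Ugdh change against lignan-free rats was -0.41 ± 0.13 for both episesamin (adjusted p = 0.07218) and sesamolin (adjusted p = 0.06933). It was -0.06 ± 0.13 for sesamin, with an interval of -0.33 to 0.21. Against sesamin the differences were -0.35 ± 0.13 for both episesamin (adjusted p = 0.2333) and sesamolin (adjusted p = 0.1924), and sesamolin and episesamin differed by 0.01 ± 0.13 (95% interval -0.26 to 0.28). Both Ugdh values lie close to the threshold. Without the third sesamolin rat the episesamin value had an adjusted p of 0.01401, and without the fifth sesamolin rat the sesamolin value had one of 0.04974. With array brightness as a covariate, Ugdh was called in both (adjusted p = 0.03901 for episesamin and 0.03461 for sesamolin). With every probe set tested on its own it was called in neither (adjusted p = 0.08911 for episesamin and 0.08446 for sesamolin).

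Set by role, the median change of the 4 transferases against lignan-free rats was 0.06 with sesamin, 0.09 with episesamin and 0.10 with sesamolin. That of the 2 cofactor genes was -0.03 with sesamin, -0.45 with episesamin and -0.51 with sesamolin. Over all 11576 genes the median change lay between -0.02 and -0.01 for the 3 lignans. The 90th percentile of the size of change over all genes was 0.393 with sesamin, 0.534 with episesamin and 0.535 with sesamolin. The change of Ugt2b1 with episesamin was larger in size than that of 99.5% of genes. For Papss2 that share was 87.3% with episesamin and 93.1% with sesamolin, and for Ugdh it was 82.8% and 82.4%. The comparisons with the lignan-free diet share its 5 rats.

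No other tested Ugt gene and 1 other tested Sult gene passed. Of 7 other Ugt genes with a probe set of 1 gene symbol, 5 were tested and 0 were called in any comparison. All 5 are Ugt2 genes, so the Ugt1a family was not tested. Among them, Ugt2b35 changed by -0.01 with sesamin, -0.10 with episesamin and -0.12 with sesamolin against lignan-free rats. Of 10 other Sult genes, 8 were tested, and Sult1c2 alone was called, higher with sesamolin by 1.02 ± 0.29 (adjusted p = 0.03984). Sult1c2 was dim, at 43.6 to 111 with sesamolin against 27.1 to 54.2 without lignan, and leaving out any of sesamolin rats 1, 3, 4 and 5 or lignan-free rats 1, 2, 3 and 4 ended its call.

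On chromosome 14 of the RefSeq annotation of GRCr8, Sult1e1, Sult1b1 and Ugt2b1 lie in 1 run of 15 protein-coding genes, of which 9 are named Ugt2 and 3 Sult. Another gene of that run, Ugt2b (a further UDP-glucuronosyltransferase), showed a pattern of its own across rats. On its brighter probe set 12 rats read 4566 to 5825 and the other 8 read 6.42 to 327, with none between. The second probe set split the same rats, at 199 to 492 for the 12 and 0.911 to 14.1 for the 8. Rats above 1000, a level chosen after the values were seen, numbered 4 of 5 with sesamin, 4 with episesamin and 1 with sesamolin, against 3 without lignan. No comparison called Ugt2b (adjusted p = 0.2921 for sesamolin against lignan-free).

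**Figure D4:**
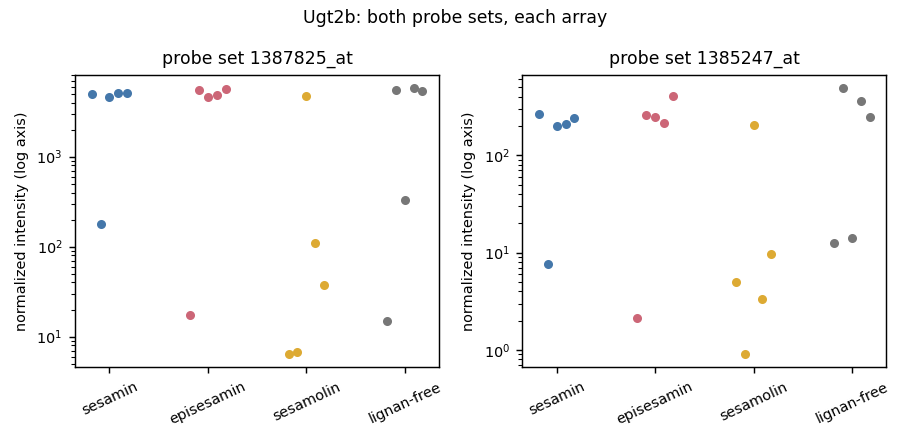
Normalized intensity of the Ugt2b probe sets on each array by diet, on logarithmic vertical axes. Rats fall into a bright and a dim set on both probe sets, and every diet holds rats of both sets.

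Supply of UDP-glucuronate starts with Ugp2, which makes the UDP-glucose that Ugdh uses. Of 4 tested genes in this supply list other than Ugdh, Ugp2 was the 1 called, and it fell by 0.61 with episesamin (adjusted p = 0.04919) and by 0.65 with sesamolin (adjusted p = 0.03123), each with an SE of 0.17. Its level was 1254 to 1387 with episesamin and 751 to 1968 with sesamolin, against 1781 to 2420 without lignan. The episesamin value is at the threshold, since that Ugp2 call held in 2 of the 20 fits that left out 1 array. The sesamolin call of Ugp2 held in 16 of the 20, and ended without sesamolin rat 4 or lignan-free rat 1, 3 or 5. In sesamolin rats the array with the lowest Ugp2 was also the array with the lowest Ugdh, the third. Ugp2 was also the gene whose values followed Ugdh most closely over the 20 arrays, with a Pearson r of 0.88.

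Of 8 tested genes of sulfate and PAPS supply beyond Papss2, 0 were called in any comparison (limma). Papss1, the other PAPS synthetase, which was named after its values were seen, had log2 differences of 0.14 with sesamin, 0.17 with episesamin and 0.18 with sesamolin against lignan-free rats (adjusted p = 0.9098, 0.5973 and 0.5554). Slc26a1, which carries sulfate across the hepatocyte membrane, had differences of -0.11, -0.19 and -0.20 in that order of lignans, and Cdo1, which starts the breakdown of cysteine towards sulfate, of 0.10, -0.13 and -0.10.

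Rats also make ascorbate from glucuronate, and 3 of 6 tested genes of glucuronate formation or use were called with both episesamin and sesamolin. These comparisons with lignan-free rats called 5.12% and 6.24% of all genes. Rgn, the gluconolactonase of ascorbate synthesis, read 4595 to 6218 with sesamin, 2841 to 3617 with episesamin and 2754 to 3636 with sesamolin, against 5301 to 6290.3 without lignan. It fell by 0.79 with episesamin (adjusted p = 0.0001011) and by 0.85 with sesamolin (adjusted p = 4.558e-05), each with an SE of 0.11, and had a difference of -0.01 with sesamin. Rgn was also lower than with sesamin, by -0.78 for episesamin (adjusted p = 0.0007337) and -0.83 for sesamolin (adjusted p = 0.000307). Gulo, which catalyses the last step to ascorbate, fell by 0.43 with episesamin (adjusted p = 0.005058) and by 0.36 with sesamolin (adjusted p = 0.01592). Akr1a1, the reductase ahead of both, had differences of 0.05 with episesamin and 0.16 with sesamolin and was not called.

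Miox, which opens inositol to free glucuronate, went the other way. Its levels were 342 to 599 with sesamin, 589 to 1015 with episesamin and 618 to 937 with sesamolin, against 201 to 309.9 without lignan, and no lignan rat overlapped the lignan-free rats. Such separation occurred in 1.91% of all genes for sesamin, 6.85% for episesamin and 6.93% for sesamolin. Miox rose by 0.85 ± 0.18 with sesamin (adjusted p = 0.03716), 1.52 ± 0.18 with episesamin (adjusted p = 1.827e-05) and 1.51 ± 0.18 with sesamolin (adjusted p = 2.018e-05). The sesamin call of Miox was kept in 8 of the 20 fits that left out 1 array. Gusb, the lysosomal enzyme that splits glucuronides, fell by 0.40 with episesamin (adjusted p = 0.01426) and by 0.31 with sesamolin (adjusted p = 0.04993), and the sesamolin call was kept in 4 of those 20 fits.

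**Figure D5:**
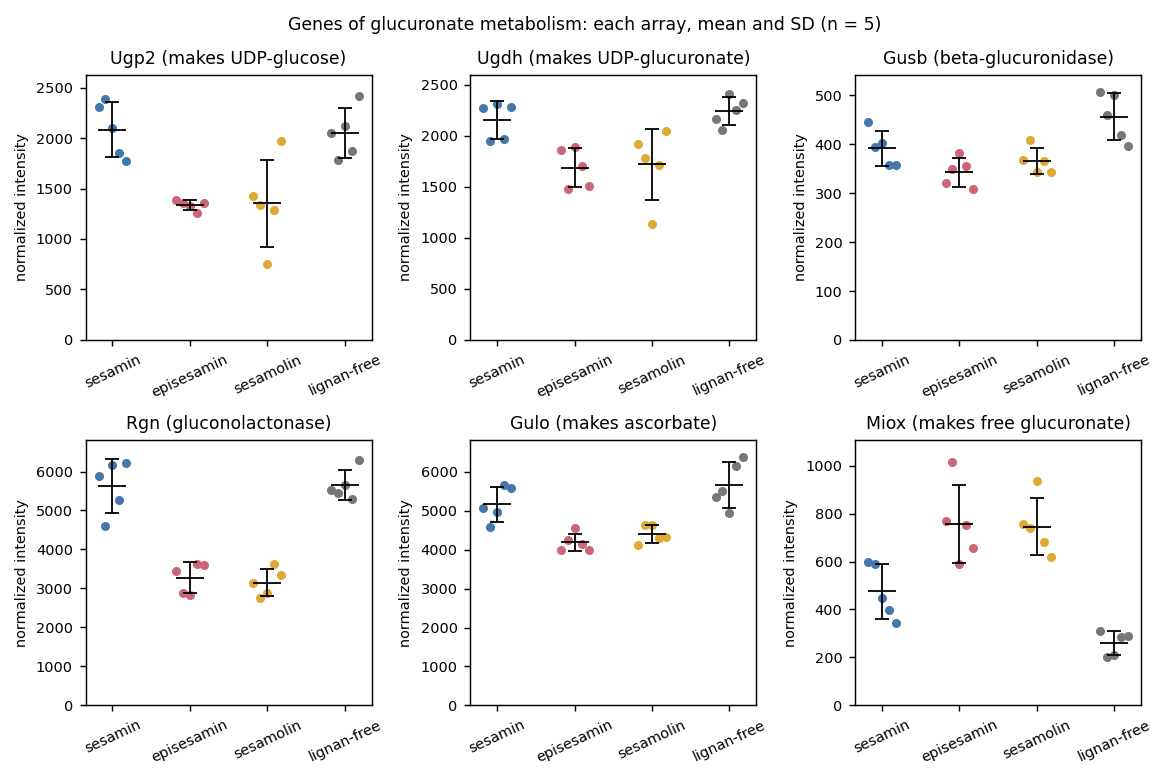
Normalized intensity (vertical axes, from 0) of 6 genes of glucuronate metabolism on each array by diet, with the mean and SD of 5 rats. Rgn and Gulo are lower on all episesamin and sesamolin arrays than on all lignan-free arrays, Ugdh and Ugp2 have lower episesamin and sesamolin means, and Miox is higher on every lignan array than on every lignan-free array.

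Among 9 tested transporters that move conjugates or drugs, Slco1a4, a hepatic uptake carrier, was the 1 called. It rose by 1.61 ± 0.24 with episesamin (adjusted p = 0.0002592) and by 1.55 ± 0.24 with sesamolin (adjusted p = 0.000426). The Slco1a4 mean was also higher with sesamin, at 1498 against 896 without lignan, but this difference was not called. Slco1b2, a hepatic uptake carrier of organic anions, had differences of -0.32 with episesamin (adjusted p = 0.149) and -0.40 with sesamolin (adjusted p = 0.05604). Of 8 tested regulators, Nr1i3, which encodes the drug-sensing receptor CAR, was the 1 called, higher with episesamin by 1.19 ± 0.31 (adjusted p = 0.03228), and its groups overlapped. Its mean was 163 with sesamin, 184 with episesamin and 172 with sesamolin, against 86.6 without lignan. The sesamin and sesamolin differences of Nr1i3 from lignan-free rats were not called. That Nr1i3 call ended without episesamin rat 3, 4 or 5 or lignan-free rat 1, 2, 4 or 5. Of 11 tested genes of drug-response phase I metabolism, 3 were called higher with episesamin and 4 with sesamolin. These comparisons called 5.12% and 6.24% of all genes. Of the 11, 10 had a log2 difference above 0 with episesamin and 8 with sesamolin, and the lowest differences were -1.25 and -0.80. Cyp2b1 and Cyp2b2 were listed but not tested. The calls were led by Aldh1a1, an aldehyde dehydrogenase, at 2.51 ± 0.34 (adjusted p = 0.0001309) and 2.26 ± 0.34 (adjusted p = 0.0004336). Aldh1a1 averaged 1348 with sesamin against 704 without lignan, a difference that was not called. Of 9 tested genes known to differ between male and female rat liver, Stac3 fell with sesamolin by 1.85 (SE 0.41, adjusted p = 0.01228). Its mean was 1480 with sesamin, 323 with episesamin and 240 with sesamolin, against 827 without lignan. The sesamin and episesamin differences of Stac3 from lignan-free rats were not called. Stac3 was called lower with episesamin and with sesamolin than with sesamin.

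For each gene, the genes with the most similar values over the 20 arrays were found by Pearson r, which reflects diet means and rat-to-rat differences together. For Ugt2b1 these were C1qtnf6 (0.867) and Ogdh (0.826), and for Papss2 they were C9h2orf49 (0.906) and Fetub (0.886). Ugdh was followed by Ugp2 (0.88) and Smad4 (0.849). The sulfotransferases had weaker matches: Oprm1 (0.737) and Arg1 (0.734) for Sult1a1, Arf4 (0.761) and Bivm (0.759) for Sult1b1, and Tcfl5 (0.777) and Paip1 (0.775) for Sult1e1. All 20 arrays share 1 normalization, and no gene among the 6 was a nearest match of another.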

How the data were processed

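The deposited series matrix holds 1 linear intensity value per probe set and Affymetrix array. How the submitters summarised or scaled it was not stated in any source at hand. Of 31099 probe sets, 20832 have 1 gene symbol in the platform annotation, 436 have several and 9831 are not listed there; 20826 probe sets were used, for 14217 genes. No probe coordinates are printed, since no genome build was stated.

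Arrays were quantile-normalized, 5.85 (the 20th percentile) was added and log2 taken, a scale that understates changes of dim genes. Probe sets above 17.8 (the 40th percentile) on at least 5 arrays were kept, and each gene was read from its brightest kept probe set, which left 11576 genes. limma 3.58.1 in R 4.3.3 fitted 4 diet means to all 20 arrays, with 6 contrasts and a moderated F test, each Benjamini-Hochberg adjusted. Promoters came from RefSeq on GRCr8. The fit was tested on simulated data. Alternatives covered normalization, offset, filter, choice of probe set, limma settings, covariates for brightness and the actin 3′ to 5′ ratio, and arrays left out.

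The 6 genes and all gene lists were chosen with earlier results of these data known. From each other list, up to 4 called genes of lowest adjusted p and up to 2 uncalled genes of highest mean were eligible to be named, and for each of the 6 genes the 2 with the highest Pearson r. Called cell type markers were named after their values were seen.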

Additional observations from a re-analysis of the deposited data

Results flagged for a closer look

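Among 184 groups of 5 arrays tested with Dixon's rule (critical value 0.71) for 1 array far from the other 4, 11 stood out, where chance gives about 1 in 20. None of the 7 probe sets of the 6 conjugation genes was among them, but some came close. The lowest lignan-free rat of Ugt2b1 (199) had a Dixon value of 0.7096, just under the critical value. Ugt2b1 also reached 0.695 for its lowest sesamin rat and 0.692 for its highest episesamin rat. Ugdh reached 0.699 for its lowest sesamolin rat. For Ugt2b the second sesamin rat (177) and the first episesamin rat (17.3) lay far below the rest of their diets. The second sesamolin rat was low for Sult1c2 (43.6) and for Aldh1a1 (2096). The second sesamin rat stood apart for Sult1c2a (258), the first sesamin rat for Akr1a1 (3888) and the fifth sesamin rat for Aldh1a1 (447). The remaining values were Pgm1 in the first sesamolin rat (1509), Alas1 in the fourth sesamolin rat (1099), Cyp2c7 in the first episesamin rat (10308) and Por in the third lignan-free rat (823).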

How the results depend on the processing

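The signs of the called Ugt2b1 and Papss2 differences were the same in all 37 alternatives, and the number of the 6 genes called moved so. Over the 4 diets 2 were called, 1 without arrays of mean raw intensity below 200, and 2 to 3 when single arrays were left out. Episesamin against lignan-free called 2, but 0 with no normalization between arrays and 1 with the actin covariate, with probe sets averaged, with only the compared groups, without the dim arrays or without the 4 arrays numbered 1, and 1 to 3 with single arrays left out (1 without episesamin 5, 3 without sesamolin 3). Episesamin against sesamin called 2, but 1 with median scaling, no normalization, averaged probe sets, the actin covariate or without the arrays numbered 1, 0 without the dim arrays, and 2 in every fit that left out 1 array. Sesamolin against lignan-free called 1, but 2 with the 60th percentile filter, trended variances, array weights or either covariate, and 1 to 2 with single arrays left out. Sesamolin against sesamin called 2, but 0 with no normalization, 1 with averaged probe sets, only the compared groups, without the dim arrays or without those numbered 1, and 1 to 2 with single arrays left out. Arrays that share a number deviated together more often: 10 of 30 pairs correlated above 0.1 (-0.0593 to 0.247), against 2 of 120 pairs of different numbers (-0.15 to 0.135), and 10 of 20 arrays correlated best with their own number. The labels do not say what a number shares and 20 pairs did not pass 0.1, so the fit without the block was kept. With the replicate block, the 6 genes kept every call except Ugt2b1 in sesamolin against sesamin (adjusted p = 0.05503, leaving 1 call). Miox with sesamin (0.05291) and Ugp2 with episesamin (0.05263) lost theirs against lignan-free. The cause of these moves was not tested. Kdr with episesamin turned to 0.1126 (adjusted p = 0.74) with averaged probe sets.

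Calls over all genes were 50, 593 and 722 for sesamin, episesamin and sesamolin against lignan-free and 142 and 210 for episesamin and sesamolin against sesamin. In the same order they were 18, 263, 264, 12 and 23 with no normalization, and 30, 357, 374, 76 and 113 without the arrays numbered 1. With only the compared groups they were 31, 352, 376, 81 and 52. Median scaling gave 65 and 81 for the last pair, trended variances 217 and the actin covariate 78 for episesamin against sesamin, and leaving out the dim arrays 297, 402 and 103 for episesamin and sesamolin against lignan-free and sesamolin against sesamin. With single arrays left out, the 5 counts ran from 35 to 52, 374 to 634, 470 to 724, 85 to 153 and 114 to 224. They moved by over 1.5 times without episesamin 3 or 4 or lignan-free 4 or 5 (episesamin against lignan-free), sesamolin 5 or lignan-free 5 (sesamolin against lignan-free), sesamin 4 or 5 or episesamin 5 (episesamin against sesamin) and sesamin 3, 4 or 5 or sesamolin 3 (sesamolin against sesamin). Sesamolin against episesamin called 1 gene in place of 0 without the dim arrays, without the filter, or without episesamin 4, lignan-free 2 or lignan-free 3. Sesamin against lignan-free and sesamolin against episesamin called 0 of the 6 genes in all alternatives. Median scaling moved the median of all genes to -0.13 in episesamin against lignan-free, and no normalization moved it to -0.25 there and -0.22 in sesamolin against lignan-free.

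Limits are 5 rats a diet, 1 probe set for most of the 6 genes, and whole liver.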
